A study of Mus musculus with 24 samples.

Results

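Bone marrow from mice given ACP196 and ACP319 together was compared with marrow from mice given vehicle, across all genes. ACP196 inhibits Bruton's tyrosine kinase (BTK) and ACP319 inhibits the delta isoform of phosphoinositide 3-kinase (PI3K-P110δ), per the labels. All mice carried Shp2 E76K, so the vehicle mice are mutant too and no mice without the mutation enter the comparison. Treatment lasted 3 weeks, and RNA was taken from bone marrow mononuclear cells. The members were chosen by the treatment label: specimens 10, 11 and 12 received both inhibitors (the combination) and specimens 1, 2 and 3 received vehicle, which makes 6 of the 12 specimens of the series. Each specimen number stands on 2 deposited samples but has 1 count column, so 12 of 24 samples are covered. The labels used here give no dose, age or strain, no promoter or Cre for the mutation and no number of mice behind a specimen. Whether the numbers mark separate mice is not stated. Transcripts of sex given below differed within each group, so not all specimens of a group came from the same mouse. The p-values cover only the spread between these specimens, which may be in part technical.

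SHP2, the phosphatase encoded by Ptpn11, passes signals of cytokine receptors on to RAS and ERK, and E76K is an activating change known from juvenile myelomonocytic leukemia, a disease of early childhood in which granulocytes and monocytes accumulate. BTK and the delta isoform of PI3K act downstream of antigen, cytokine and Fc receptors in blood cells and produce, or respond to, the membrane lipid PIP3. Marrow holds the precursors of red cells, granulocytes, monocytes, platelets and lymphocytes side by side, so its RNA is a mixture of these lineages. In such bulk samples fewer cells of a type and less RNA per cell cannot be told apart.

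The specimens held 18466654, 16038577 and 21787549 counts in the combination and 20522801, 22154833 and 20731258 counts in vehicle, in the order of their numbers. Values below are in CPM, a gene's counts as a share of all counts over the 12456 tested genes (of 24421 in the table), and groups of values follow the order 10, 11, 12 and 1, 2, 3. The pan-leukocyte gene Ptprc (CD45) had 687 to 763.2 CPM in the combination and 747.8 to 1176 CPM in vehicle. Rank correlations between specimens were 0.98 to 0.99 within the combination and 0.968 to 0.987 within vehicle, where specimen 2 had the lowest ones and specimen 1 lay at one end of the first principal component (37.7% of the variance). Between the groups they ran from 0.964 to 0.9844. Vehicle specimen 2 reached 0.9822 with a combination specimen, above its 0.9683 and 0.9688 with the other vehicle specimens. Combination specimen 10 reached 0.9844 with a vehicle specimen, against 0.9805 to 0.9878 within its group. On the first component the vehicle specimens lay at -48.11, 0.47 and -17.87 and the 3 combination specimens between 19.3 and 25.05. On the second component vehicle specimen 2 lay at 45.58. The relative slope of level on gene length was -0.1296, 0.0345 and 0.0743 in the combination and -0.0689, 0.191 and -0.1014 in vehicle. It thus differed within both groups and was highest in vehicle specimen 2. Y-linked transcripts were found in combination specimen 11 and vehicle specimens 1 and 2. Summed over 4 genes they had 135.7 to 171.8 CPM there, against 0 to 0.219 CPM in the others. Xist, which female cells express, had 168.7, 0.77 and 391.1 CPM in the combination and 0, 0.046 and 242.9 CPM in vehicle. By these transcripts 1 of 3 combination specimens and 2 of 3 vehicle specimens were male, so sex was not balanced between the groups. The precursor of ribosomal RNA, Rn45s, took 0.2145% to 0.7727% of counts in the combination, highest in specimen 10, and 0.2033% to 0.3282% in vehicle.

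Erythroid genes, genes of heme synthesis and genes of DNA replication lay higher in the combination, and interferon-stimulated genes and genes of neutrophils and other phagocytes lay lower. No single gene passed the test, however: the quasi-likelihood test of edgeR, adjusted after Benjamini and Hochberg, called 0 of 12456 genes higher (0%) and 0 lower (0%) at an adjusted p of 0.05, and the smallest adjusted p was 0.136. At an unadjusted p under 0.05 there were 1675 genes, 808 of them higher (6.49%) and 867 lower (6.96%). With the same counts DESeq2 called 176 genes higher (1.41%) and 102 lower (0.819%), and limma voom with quality weights called 694 higher (5.57%) and 626 lower (5.03%), with 261 genes called by both. In 1141 genes (9.16%) the 3 combination values all lay above the 3 vehicle values, and in 1216 genes (9.76%) all lay below. These shares are the background against which the gene groups are read. Without vehicle specimen 2, edgeR called 259 genes higher and 192 lower, and leaving out any other specimen gave 0 calls. The part of gene length in the calls made without vehicle specimen 2 was not tested.

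The log2 differences (combination minus vehicle) had a median of 0.00 over all tested genes, with quartiles of -0.24 and 0.21, and 443 genes differed by more than 1. Positive differences made up 49.4% of the tested genes and negative ones 50.6%. Since every adjusted p was 0.136 or more, "higher" and "lower" below describe the values of these specimens, and differences are given with their standard errors.

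**Figure D1:**
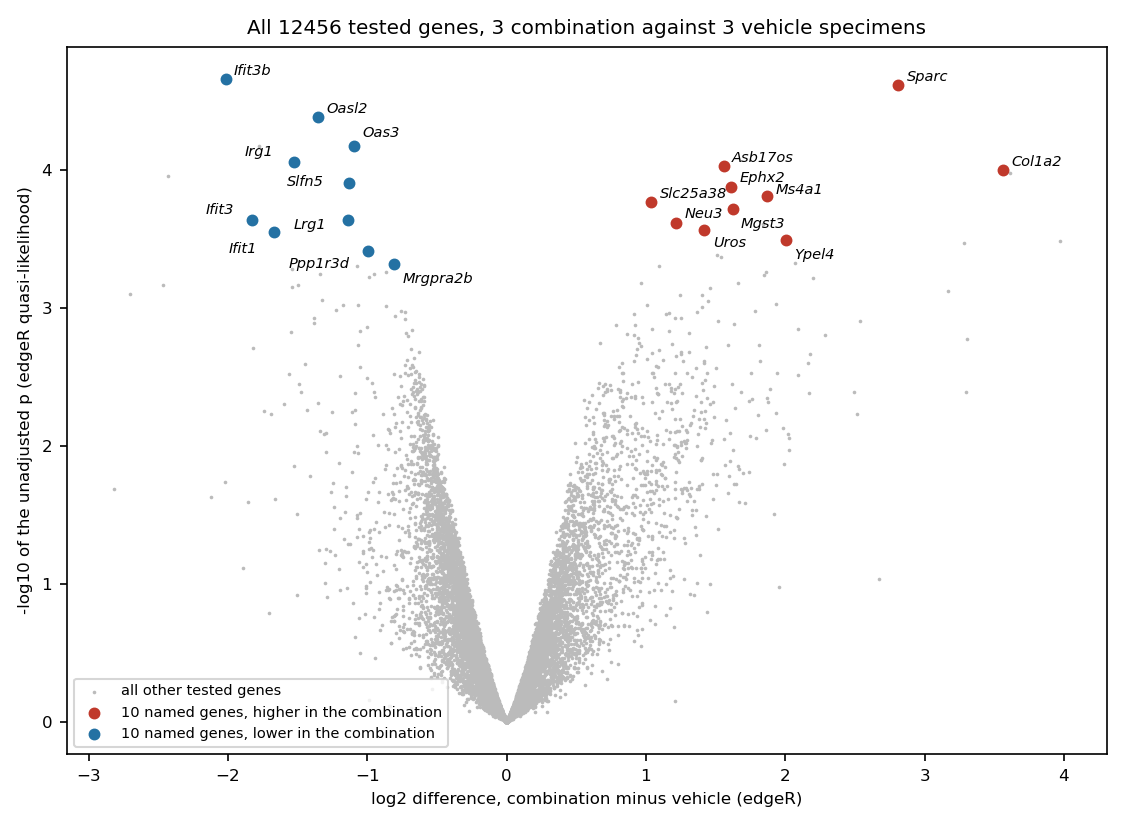
Each point is 1 of the 12456 tested genes, with the log2 difference (combination minus vehicle) on the horizontal axis and the negative log10 of the unadjusted edgeR p on the vertical axis. The 10 named genes higher in the combination (red) and the 10 lower (blue) have the smallest p among well-expressed genes whose groups did not overlap, and Sparc and Ifit3b stand at the top.

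The genes named first were limited to well-expressed genes whose groups did not overlap, without predicted genes. Of these the 10 with the smallest p on the higher side were Sparc, Asb17os, Col1a2, Ephx2, Ms4a1, Slc25a38, Mgst3, Neu3, Uros and Ypel4. Ephx2, the soluble epoxide hydrolase, had 7.61, 7.27 and 9.43 CPM in the combination, against 1.88, 2.92 and 3.14 CPM in vehicle (log2 difference 1.61 ± 0.27, SE). Neu3, a plasma membrane sialidase that acts on gangliosides, had 7.83, 9.40 and 9.18 CPM in the combination, against 3.50, 3.62 and 4.24 CPM in vehicle (1.21 ± 0.22). Ypel4 had 12.3, 25.4 and 11.7 CPM in the combination, against 2.51, 4.36 and 5.34 CPM in vehicle (2.01 ± 0.37). In these 3 genes combination values were at least as far from vehicle as the vehicle specimens were from one another. Asb17os, a transcript on the opposite strand of Asb17, had 8.81, 9.69 and 7.79 CPM in the combination, against 2.25, 3.15 and 3.49 CPM in vehicle (1.56 ± 0.25), and because the library kit does not mark strand its reads cannot be told from those of its antisense partner.

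On the lower side the 10 genes under the same conditions were Ifit3b, Oasl2, Oas3, Irg1, Slfn5, Ifit3, Lrg1, Ifit1, Ppp1r3d and Mrgpra2b. Of these 10, 6 belong to the interferon-stimulated list described next. Irg1, which makes the antimicrobial metabolite itaconate in activated macrophages and neutrophils, had 3.67, 2.96 and 3.54 CPM in the combination, against 9.73, 7.84 and 11.7 CPM in vehicle (-1.52 ± 0.24). Ppp1r3d, a subunit that directs protein phosphatase 1 to glycogen, had 17.5, 19.1 and 17.2 CPM in the combination, against 39.4, 39.5 and 28.4 CPM in vehicle (-0.9968 ± 0.19). Mrgpra2b, a Mas-related G protein-coupled receptor, had 21.8, 23.8 and 23.0 CPM in the combination, against 41.8, 38.9 and 39.4 CPM in vehicle (-0.81 ± 0.16). The 3 combination values of Mrgpra2b lay close together and well below the lowest vehicle value.

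**Figure D2:**
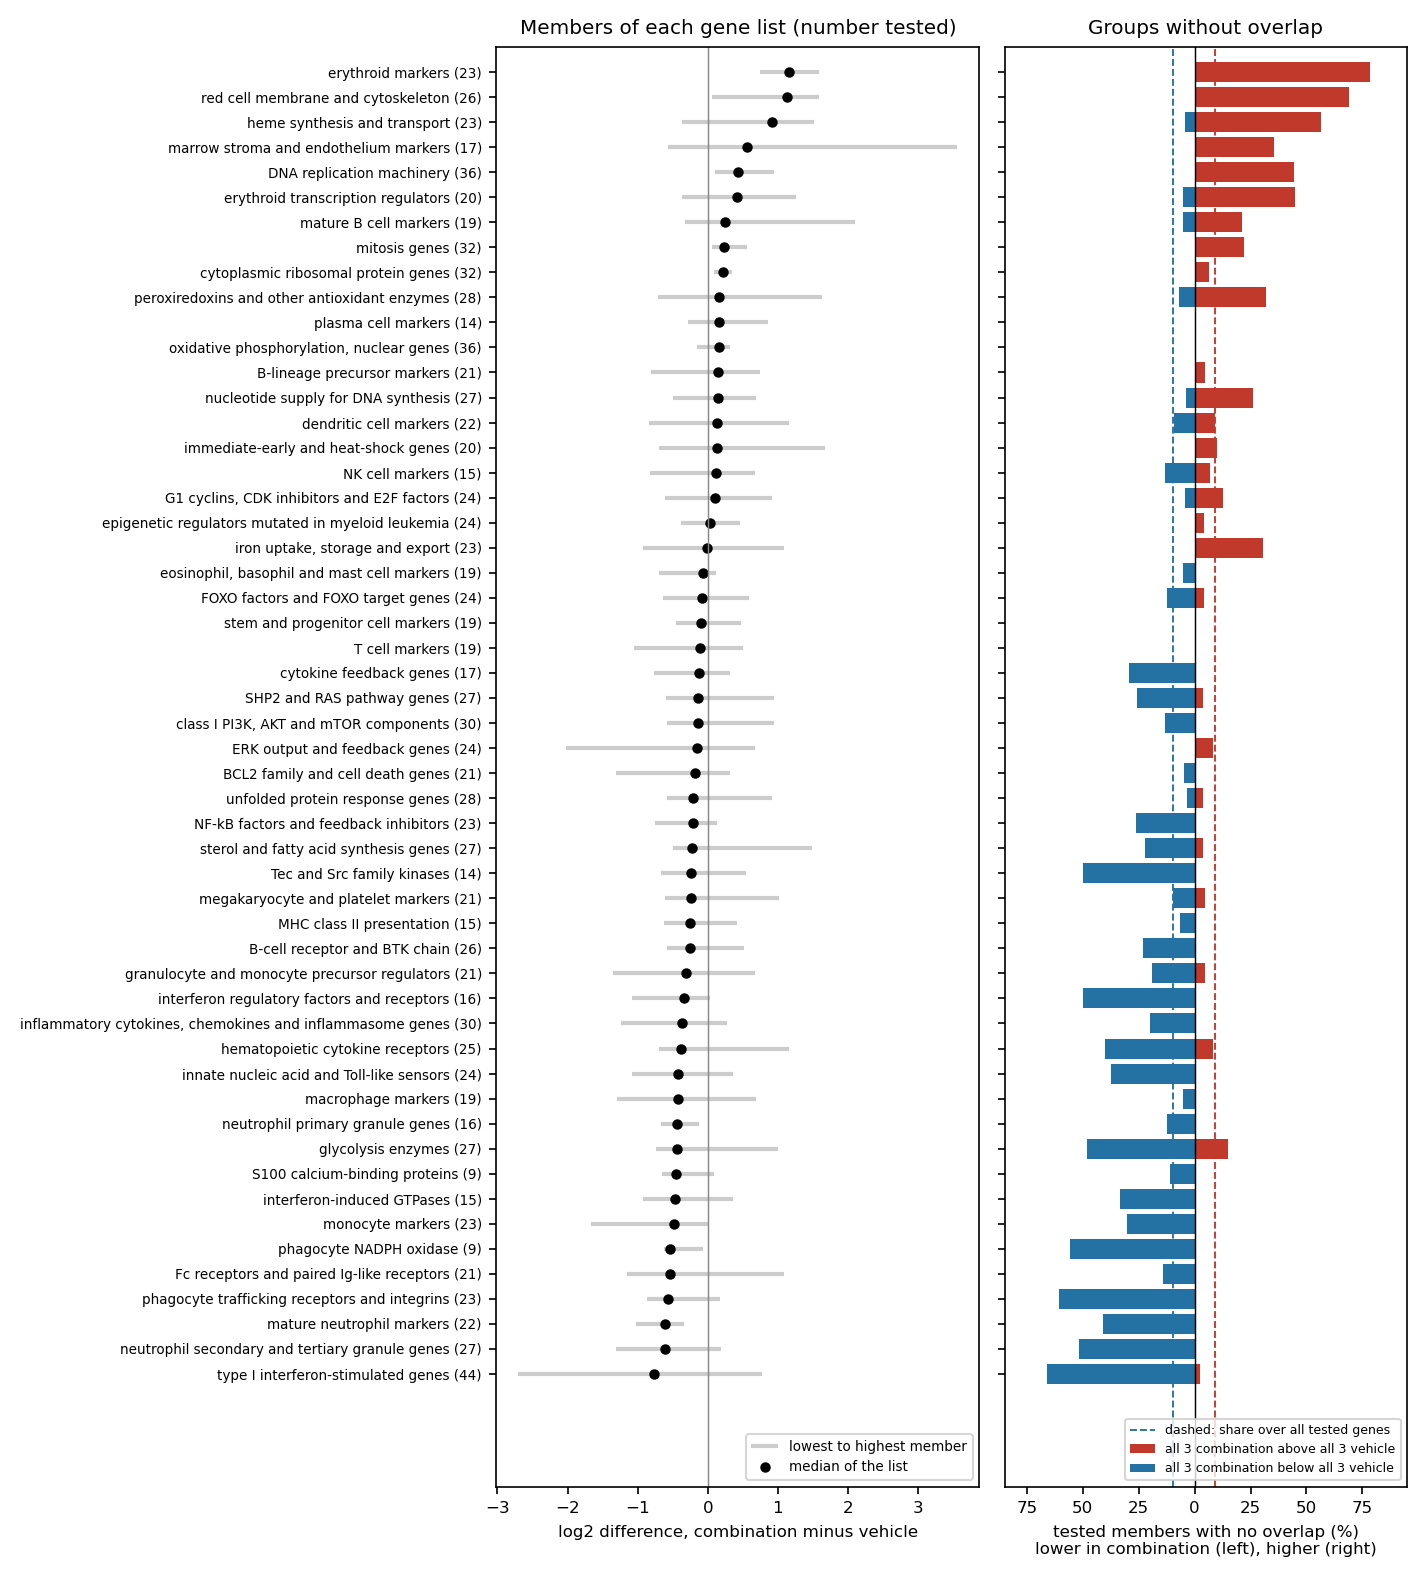
Each row is a gene list with its number of tested members, ordered by the median log2 difference (combination minus vehicle): the left panel shows the median (dot) and the lowest to highest member (grey line), the right panel the share of members whose combination values lie all above (red) or all below (blue) vehicle, with the shares over all tested genes dashed (9.16% and 9.76%). Erythroid, red cell membrane and heme lists stand at the top, and interferon-stimulated, neutrophil granule and trafficking lists at the bottom.

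Type I interferons activate transcription factors that bind the interferon-stimulated response element (ISRE) in the promoters of antiviral genes. Promoter windows of RefSeq (GRCm38.p6, 250 bases before to 50 after a gene's start) were searched on both strands for the ISRE core, GAAA followed by any 2 bases and again GAAA. It was found in 17 of the 33 interferon-stimulated genes with a window (51.5%), in 3.99% of all 27025 genes and in 3.43% of all 32817 windows. The 3 listed genes with the smallest p whose only window holds the core are shown because they carry the largest group of lower genes, with the matches in capitals (the other strand's match is the reverse complement). The windows are Ifit3b at chr19:34607707-34608006 (plus strand), Oas3 at chr5:120777610-120777909 (minus strand) and Slfn5 at chr11:82951852-82952151 (plus strand).
Ifit3b: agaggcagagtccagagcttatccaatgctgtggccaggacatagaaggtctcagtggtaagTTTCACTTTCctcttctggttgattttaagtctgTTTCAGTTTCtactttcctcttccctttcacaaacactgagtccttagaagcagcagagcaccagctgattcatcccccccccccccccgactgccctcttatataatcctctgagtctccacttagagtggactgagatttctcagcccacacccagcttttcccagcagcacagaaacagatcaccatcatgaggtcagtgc
Oas3: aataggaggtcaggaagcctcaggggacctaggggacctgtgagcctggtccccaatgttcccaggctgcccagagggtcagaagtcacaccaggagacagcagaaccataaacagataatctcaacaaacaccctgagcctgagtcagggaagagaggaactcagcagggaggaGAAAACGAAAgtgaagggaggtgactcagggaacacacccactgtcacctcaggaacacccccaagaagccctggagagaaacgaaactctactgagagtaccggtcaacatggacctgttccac
Slfn5: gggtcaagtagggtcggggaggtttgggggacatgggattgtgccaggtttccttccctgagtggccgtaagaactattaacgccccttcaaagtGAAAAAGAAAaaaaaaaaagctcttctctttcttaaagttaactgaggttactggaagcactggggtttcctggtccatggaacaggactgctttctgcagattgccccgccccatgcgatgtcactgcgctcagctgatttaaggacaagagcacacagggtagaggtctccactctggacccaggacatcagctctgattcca

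Of the 44 interferon-stimulated genes listed, all 44 were tested, 43 had a negative and 1 a positive log2 difference, and the median was -0.77. The combination lay wholly below vehicle in 29 of them and wholly above in 1, against 9.76% and 9.16% of all tested genes. DESeq2 called 20 lower (0.819% of all genes) and edgeR 0. Ifit3b (chr19:34607957-34613401, GRCm38.p6), a member of the family that binds viral RNA, averaged 3.06 ± 0.510 CPM in the combination and 12.4 ± 3.11 CPM in vehicle (SD, n = 3 each), a log2 difference of -2.02 ± 0.27 (edgeR quasi-likelihood, Benjamini-Hochberg adjusted p = 0.136). Its counts may be split with the near-identical copy Ifit3, which had 6.95, 6.92 and 5.26 CPM in the combination, against 29.3, 11.9 and 26.7 CPM in vehicle (-1.83 ± 0.32), and Ifit1 of the same family had 10.8, 7.21 and 5.77 CPM in the combination, against 27.0, 16.4 and 31.9 CPM in vehicle (-1.67 ± 0.30). In all 3 Ifit genes vehicle specimen 2 was the lowest of its group and still above every combination specimen.

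The 2′-5′ oligoadenylate synthetases and their relatives, which respond to double-stranded RNA, were lower as well. Oas3 had 86.2, 107 and 99.4 CPM in the combination, against 204, 219 and 202 CPM in vehicle (-1.09 ± 0.17). Oasl2 had 53.9, 52.5 and 58.1 CPM in the combination, against 149, 108 and 163 CPM in vehicle (-1.35 ± 0.19). In both genes the lowest vehicle value stood far above the highest combination value. Slfn5, a Schlafen protein, had 39.2, 36.0 and 48.7 CPM in the combination, against 92.7, 77.2 and 101 CPM in vehicle (-1.13 ± 0.19). Chosen after the values were seen, Oas1g had the most negative difference of the list, with 4.27, 2.72 and 2.23 CPM in the combination, against 27.3, 4.96 and 27.6 CPM in vehicle (-2.70 ± 0.57), and here vehicle specimen 2 stood close to the combination. Isg20, an exonuclease, was the 1 listed gene on the other side, with 112, 106 and 93.9 CPM in the combination, against 35.1, 71.9 and 75.6 CPM in vehicle (0.77 ± 0.27).

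Several well-known members of this list overlapped between the groups, and these too were chosen after the values were seen. Isg15, a ubiquitin-like modifier, had 36.3, 27.1 and 25.7 CPM in the combination, against 28.8, 37.6 and 58.0 CPM in vehicle (-0.48 ± 0.26). Rsad2 (viperin) had 119, 124 and 136 CPM in the combination, against 88.5, 182 and 149.8 CPM in vehicle (-0.15 ± 0.25). Mx1 had 3.94, 8.45 and 5.05 CPM in the combination, against 14.0, 4.78 and 11.4 CPM in vehicle (-0.79 ± 0.40). Vehicle specimen 2 was the lowest vehicle value in Mx1, and in Rsad2 it was the highest. The list was therefore not uniform, and the median ran between -0.93 and -0.67 when any 1 specimen was left out.

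Upstream of these genes, 8 of 16 tested interferon regulatory factors and receptors lay wholly below vehicle (median -0.33) and none above. Irf7, the factor that amplifies type I interferon production, had 53.6, 55.8 and 38.8 CPM in the combination, against 103, 83.7 and 126 CPM in vehicle (-1.07 ± 0.21). Its 3 combination values all lay below the lowest vehicle value. The interferon-gamma induced GTPases, which act on intracellular pathogens, had 5 of 15 tested members wholly lower and a median of -0.47. Irgm2 had 24.5, 20.1 and 24.0 CPM in the combination, against 40.5, 31.7 and 37.1 CPM in vehicle (-0.67 ± 0.18). Gbp6 had 1.53, 1.60 and 1.39 CPM in the combination, against 2.82, 2.32 and 3.44 CPM in vehicle (-0.93 ± 0.29).

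Sensors of foreign nucleic acid and bacterial products followed the same side, with 9 of 24 members wholly lower, none higher, and a median of -0.42. Ddx58 (RIG-I), a sensor of viral RNA, had 37.8, 47.2 and 47.1 CPM in the combination, against 73.5, 77.5 and 66.8 CPM in vehicle (-0.72 ± 0.17). Tlr13, a receptor for bacterial ribosomal RNA in mice, had 87.7, 72.8 and 107 CPM in the combination, against 147, 143 and 140.1 CPM in vehicle (-0.69 ± 0.18). Many of these genes are also expressed by neutrophils and monocytes, whose markers lay on the same side: the summed mature neutrophil markers were 43276 to 54809 CPM in the combination and 49108 to 85382 CPM in vehicle, and the summed monocyte markers 7679.8 to 10215 CPM in the combination and 8668 to 13996 CPM in vehicle. The part of cell composition in the interferon values was not tested.

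**Figure D3:**
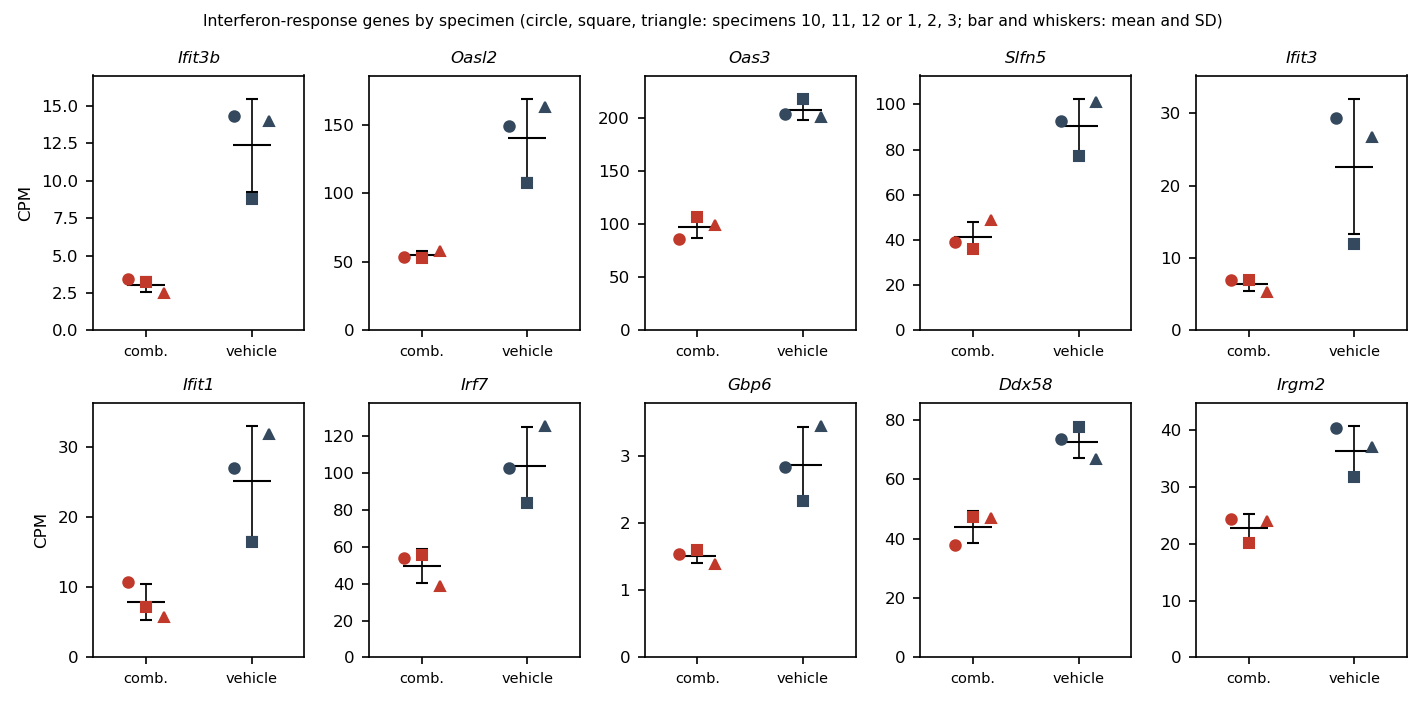
CPM of 10 interferon-response genes in each specimen, combination at left (red) and vehicle at right (dark), with bars for the mean and whiskers for the SD of 3 specimens. In all 10 genes the 3 combination points lie below the 3 vehicle points, and vehicle specimen 2 (square) is the lowest of its group in 8 of them.

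Red cell precursors switch on a program led by GATA1 and KLF1 that supplies heme, iron, globin and a specialised membrane skeleton. The GATA motif (AGATAA or TGATAA, both strands) was present in the RefSeq windows of 9 of 16 erythroid marker genes (56.2%), against 21% of all genes and 18.6% of all windows. The KLF1-type motif CCNCNCCC was in 17 of 19 heme genes (89.5%) and 10 of 16 erythroid markers (62.5%), against 51.9% of all genes, and the GATA motif was in 3 of 19 heme genes (15.8%). The 3 erythroid markers with the smallest p whose only window holds a GATA motif are shown, since these markers had the highest median of the lists with more than 1 tested member, with the motif in capitals (TTATCT and TTATCA on the other strand). They are Kel at chr6:41704276-41704575 (minus strand), Hemgn at chr4:46404134-46404433 (minus strand) and Rhd at chr4:134864286-134864585 (plus strand).
Kel: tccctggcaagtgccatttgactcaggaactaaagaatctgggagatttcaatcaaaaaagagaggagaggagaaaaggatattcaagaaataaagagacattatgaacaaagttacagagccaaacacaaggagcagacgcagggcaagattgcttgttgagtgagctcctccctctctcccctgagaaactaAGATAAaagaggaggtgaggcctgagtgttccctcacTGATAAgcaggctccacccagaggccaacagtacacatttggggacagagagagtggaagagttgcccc
Hemgn: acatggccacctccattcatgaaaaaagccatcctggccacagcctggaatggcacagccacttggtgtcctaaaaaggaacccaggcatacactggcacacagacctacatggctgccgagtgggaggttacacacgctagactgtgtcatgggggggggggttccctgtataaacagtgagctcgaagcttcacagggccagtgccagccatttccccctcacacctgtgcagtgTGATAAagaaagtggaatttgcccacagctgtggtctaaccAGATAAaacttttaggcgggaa
Rhd: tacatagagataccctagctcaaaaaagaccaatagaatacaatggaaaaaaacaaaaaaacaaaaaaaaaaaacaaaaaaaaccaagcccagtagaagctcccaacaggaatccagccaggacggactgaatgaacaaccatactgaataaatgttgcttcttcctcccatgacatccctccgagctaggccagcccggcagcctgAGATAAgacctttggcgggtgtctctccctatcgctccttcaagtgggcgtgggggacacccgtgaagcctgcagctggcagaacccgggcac

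Of 24 erythroid markers 23 were tested and all 23 had a positive log2 difference, with a median of 1.16, a range of 0.75 (Car1) to 1.59 (Kel), and 18 wholly above vehicle and 0 below (background 9.16% and 9.76%). DESeq2 called 13 of them higher (1.41% of all genes). Tfrc, the transferrin receptor that brings iron into the cell, had 683, 630.2 and 656 CPM in the combination, against 219.6, 349 and 355 CPM in vehicle (1.09 ± 0.21). Kel, the Kell blood group protein, had 88.3, 168 and 89.3 CPM in the combination, against 18.7, 49.96 and 46.5 CPM in vehicle (1.59 ± 0.38). The summed level of the markers was 7946 to 8696 CPM in the combination and 1539 to 5733 CPM in vehicle, with the lowest value in vehicle specimen 1. Vehicle specimen 1 was below the other vehicle specimens in these markers, and the list's median was 0.82 without it and 1.57 without vehicle specimen 2.

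Markers of late red cell precursors set vehicle specimens 1 and 2 far apart. Chosen after the values were seen, Slc4a1, the anion exchanger of the red cell membrane, had 1016, 1171 and 996 CPM in the combination, against 152, 999 and 357 CPM in vehicle (1.08 ± 0.52). Alas2, the erythroid enzyme of the first step of heme synthesis, had 482, 485 and 394 CPM in the combination, against 64.8, 432 and 272 CPM in vehicle (0.82 ± 0.50). For both of these vehicle specimen 2 was near or within the combination values, and the vehicle specimens lay further apart than the group means.

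Among 20 erythroid transcription regulators the combination lay wholly above vehicle in 9 and below in 1, with a median of 0.42. Gata1, the master regulator of the lineage, had 120.2, 113 and 102 CPM in the combination, against 31.1, 67.5 and 63.4 CPM in vehicle (1.05 ± 0.27). Gfi1b, a repressor needed for red cells and platelets, had 76.3, 82.6 and 75.3 CPM in the combination, against 19.0, 55.7 and 40.1 CPM in vehicle (1.03 ± 0.32). Myb and Ikzf1, regulators shared with stem cells and other lineages, were at -0.07 and -0.18 with overlap. Tal1, Lmo2, Ldb1, Bcl11a and E2f4 of the same list lay wholly above vehicle, at 0.88, 0.50, 0.45, 0.52 and 0.61. All of these were chosen after the values were seen. Bach1, a heme-sensing repressor, was the 1 regulator wholly below vehicle (-0.37 ± 0.17).

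Heme is built by a chain of enzymes shared between mitochondrion and cytosol. Of 24 genes of heme synthesis and transport 23 were tested, 13 lay wholly above vehicle and 1 below, and the median was 0.92. Slc25a38, the mitochondrial carrier that brings in glycine for the first step, had 83.1, 82.3 and 71.6 CPM in the combination, against 33.6, 36.0 and 45.8 CPM in vehicle (1.04 ± 0.18; edgeR quasi-likelihood, Benjamini-Hochberg adjusted p = 0.151). Uros, the enzyme that closes the tetrapyrrole ring, had 107, 107 and 69.9 CPM in the combination, against 24.6, 35.9 and 45.6 CPM in vehicle (1.42 ± 0.26). Further enzymes of the pathway, named after their values were seen, had log2 differences of 1.25 (Alad), 0.96 (Urod), 1.08 (Cpox), 0.92 (Ppox) and 0.96 (Fech), each without overlap of the groups. The housekeeping form of the first enzyme, Alas1, and the heme-degrading oxygenases Hmox1 and Hmox2 were on the other side at -0.36, -0.15 and -0.37, and of these Hmox2 lay wholly below vehicle.

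Iron genes divided as well. The list of uptake, storage and export had 7 of 23 tested members wholly higher and none wholly lower, with a median of -0.01. Slc25a37 (mitoferrin 1), which carries iron into the mitochondria of red cell precursors, had 283, 391.5 and 277 CPM in the combination, against 99.8, 199 and 147 CPM in vehicle (1.09 ± 0.26). Glrx5 and Tfr2, chosen after the values were seen, were at 0.93 ± 0.23 and 0.86 ± 0.31. The storage proteins ferritin light and heavy chain (Ftl1 and Fth1) were at -0.22 ± 0.18 and 0.18 ± 0.19, and the exporter ferroportin (Slc40a1), known from macrophages, at -0.08 ± 0.17. For these 3 the combination and vehicle values overlapped.

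The red cell membrane and its skeleton had 18 of 26 tested members wholly higher and 0 wholly lower, with a median of 1.13, or 1.75 by limma voom. Cd59a, which protects cells from complement, had 20.3, 22.3 and 14.9 CPM in the combination, against 3.61, 7.28 and 10.4 CPM in vehicle (1.43 ± 0.34). Ank1, the ankyrin of the red cell skeleton, chosen after the values were seen, had wide vehicle values, with 242, 332 and 304 CPM in the combination, against 43.0, 260.5 and 110.3 CPM in vehicle (1.09 ± 0.50). Only 1 hemoglobin gene could be tested, Hbq1b, with 7.77, 8.33 and 7.62 CPM in the combination, against 1.31, 4.59 and 4.19 CPM in vehicle (1.23 ± 0.39). The major alpha and beta globins (Hba-a1, Hba-a2, Hbb-bs and Hbb-bt) were listed at 0 counts in all 6 specimens. The 2 alpha genes are near-identical to each other, as are the 2 beta genes, and the cause of the 0 counts was not tested, so no level is given for them.

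**Figure D4:**
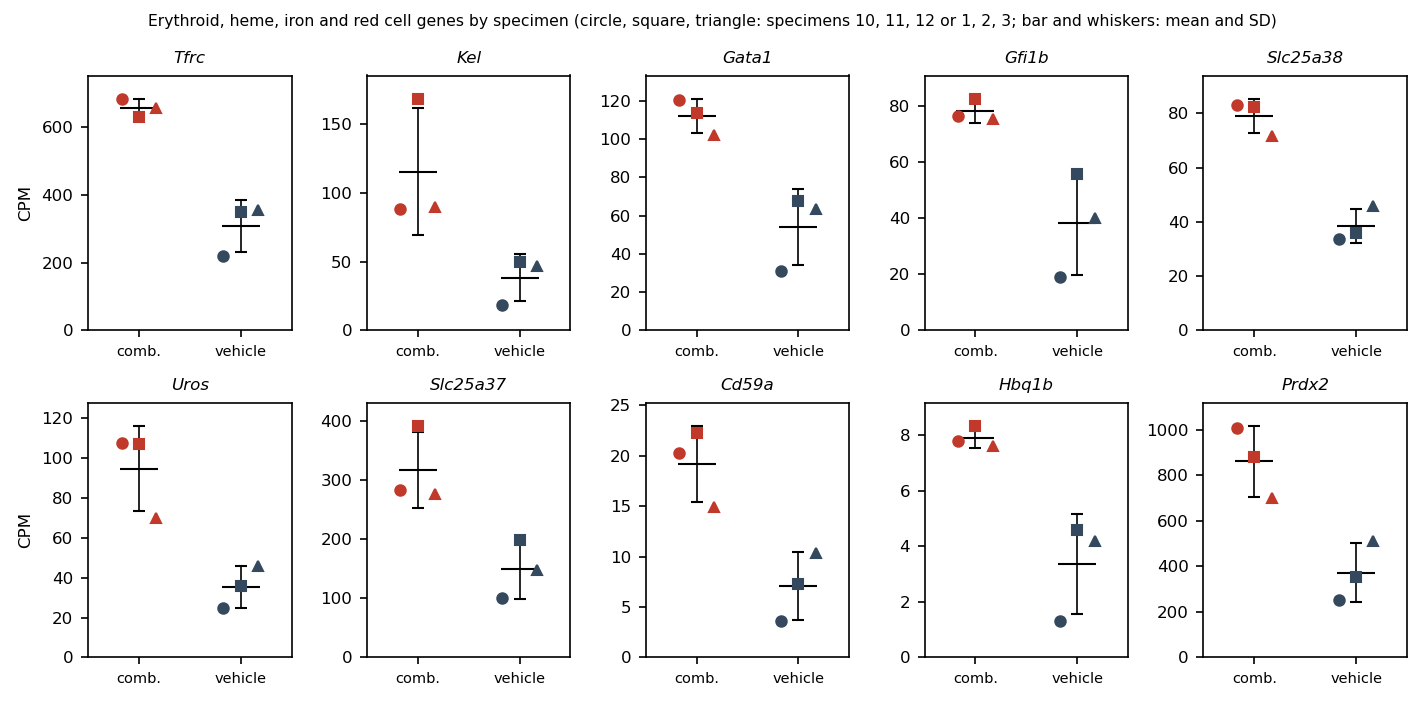
CPM of 10 erythroid, heme, iron and red cell genes in each specimen, combination at left (red) and vehicle at right (dark), with bars for the mean and whiskers for the SD of 3 specimens. All 3 combination points lie above all 3 vehicle points in each of the 10 genes, and vehicle specimen 1 (circle) is the lowest point in every panel.

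Dividing cells load the MCM helicase at origins and copy DNA with a set of factors controlled by E2F. E2F motifs (TTTCCCGC or TTTGGCGC, both strands) were found in the windows of 11 of 29 replication genes (37.9%), against 1.8% of all genes and 1.56% of all windows. The 3 with the smallest p and a single window are shown because the whole replication list lay on 1 side, with the motif in capitals (GCGGGAAA and GCGCCAAA on the other strand). They are Cdc6 at chr11:98907901-98908200 (plus strand), Rfc3 at chr5:151651159-151651458 (minus strand) and Pole2 at chr12:69228141-69228440 (minus strand).
Cdc6: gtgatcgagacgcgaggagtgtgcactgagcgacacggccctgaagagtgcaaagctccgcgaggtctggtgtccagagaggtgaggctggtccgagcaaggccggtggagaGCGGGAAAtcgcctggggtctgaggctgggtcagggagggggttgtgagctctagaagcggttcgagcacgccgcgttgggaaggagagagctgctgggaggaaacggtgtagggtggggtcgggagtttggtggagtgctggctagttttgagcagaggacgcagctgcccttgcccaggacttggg
Rfc3: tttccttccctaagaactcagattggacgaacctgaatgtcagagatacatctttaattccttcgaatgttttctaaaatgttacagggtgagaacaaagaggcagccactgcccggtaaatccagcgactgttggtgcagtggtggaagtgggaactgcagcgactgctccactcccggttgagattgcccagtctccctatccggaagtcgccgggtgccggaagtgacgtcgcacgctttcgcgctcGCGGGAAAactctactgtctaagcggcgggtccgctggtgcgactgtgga
Pole2: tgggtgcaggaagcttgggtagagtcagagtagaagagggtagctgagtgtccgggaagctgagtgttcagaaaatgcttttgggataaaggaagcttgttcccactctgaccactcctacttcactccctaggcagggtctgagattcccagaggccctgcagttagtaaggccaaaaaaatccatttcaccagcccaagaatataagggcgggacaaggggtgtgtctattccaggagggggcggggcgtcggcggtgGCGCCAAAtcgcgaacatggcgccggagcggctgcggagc

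All 36 replication genes were tested and all 36 had a positive log2 difference (49.4% of all genes did), with a range of 0.11 (Rfc1) to 0.94 (Orc1) and a median of 0.42. In 16 the combination lay wholly above vehicle and in 0 below. Orc1, the largest subunit of the origin recognition complex, had 48.4, 38.5 and 43.3 CPM in the combination, against 16.1, 24.8 and 27.0 CPM in vehicle (0.94 ± 0.22). Cdc6, which helps to load the MCM helicase, had 146, 157 and 131 CPM in the combination, against 57.8, 109 and 82.4 CPM in vehicle (0.80 ± 0.23). Mcm2, a subunit of that helicase chosen after the values were seen, had 321, 297 and 306 CPM in the combination, against 146, 324 and 189 CPM in vehicle (0.49 ± 0.27), and vehicle specimen 2 was its highest value. Rapidly dividing red cell precursors are among the cells that express these genes, and the erythroid markers given above lay on the same side, with vehicle specimen 1 lowest in both lists. The part of erythroid cells in the replication values was not tested.

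Enzymes that supply nucleotides had 7 of 27 members wholly higher and 1 wholly lower (median 0.14). Rrm2, the inducible subunit of ribonucleotide reductase, had 612, 556 and 469 CPM in the combination, against 289, 368 and 359 CPM in vehicle (0.69 ± 0.19). Samhd1, an enzyme that breaks down deoxynucleotides and is also interferon-inducible, was the 1 wholly lower member, with 341, 411 and 429 CPM in the combination, against 555, 583 and 522 CPM in vehicle (-0.49 ± 0.17). All 32 mitosis genes were positive (median 0.23), 7 of them without overlap. Birc5 (survivin) had 248, 211 and 166 CPM in the combination, against 139.8, 113 and 171 CPM in vehicle (0.56 ± 0.22), with overlap at combination specimen 12. Hmmr, a spindle protein, had 123, 109.7 and 119 CPM in the combination, against 82.3, 88.1 and 100.1 CPM in vehicle (0.38 ± 0.16), without overlap. Among 24 G1 regulators 3 were wholly higher and 1 wholly lower, against 9.16% and 9.76% of all tested genes. The cyclins that start DNA synthesis were higher, with 106, 86.8 and 86.1 CPM in the combination, against 33.8, 54.9 and 59.7 CPM in vehicle for Ccne1 (0.91 ± 0.23) and 137, 113 and 99.1 CPM in the combination, against 71.7, 49.0 and 91.5 CPM in vehicle for Ccne2 (0.72 ± 0.24), whereas the D cyclins Ccnd1, Ccnd2 and Ccnd3, chosen after the values were seen, were at 0.04, -0.38 and 0.02 with overlap.

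Neutrophils fill their granules in order during maturation, first with the primary granule proteases and later with secondary and tertiary granule proteins. Of 16 primary granule genes all had negative differences, with a median of -0.44. The combination lay wholly below vehicle in 2 and above in 0, against 9.76% and 9.16% of all tested genes. Ctsc, which activates the granule proteases, had 176, 104 and 143 CPM in the combination, against 231, 213 and 224 CPM in vehicle (-0.66 ± 0.21). Clec5a had 179.6, 155 and 157 CPM in the combination, against 262, 194 and 228 CPM in vehicle (-0.47 ± 0.18). Mpo (myeloperoxidase) and Elane (neutrophil elastase), chosen after the values were seen, were at -0.59 ± 0.26 and -0.45 ± 0.27 and overlapped between the groups.

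In 14 of 27 secondary and tertiary granule genes the combination was wholly below vehicle and in 0 above, against 9.76% and 9.16% of all tested genes. The median was -0.61, and DESeq2 called 6 lower (0.819% of all genes). Lrg1, a leucine-rich glycoprotein stored in neutrophil granules, averaged 142 ± 26.7 CPM in the combination and 313 ± 46.9 CPM in vehicle (SD, n = 3 each), a log2 difference of -1.14 ± 0.20. Lcn2, the iron-sequestering protein lipocalin 2, had 3881, 3387 and 3122 CPM in the combination, against 5655, 6812 and 5143 CPM in vehicle (-0.76 ± 0.20). Chosen after the values were seen, Ngp, among the most abundant transcripts here, had 14777, 13392 and 11051 CPM in the combination, against 21110.0, 24209 and 17186 CPM in vehicle (-0.67 ± 0.22). Ltf (lactoferrin) had 8211, 8218 and 7277 CPM in the combination, against 11629, 14589 and 10057 CPM in vehicle (-0.61 ± 0.21). In these 4 genes vehicle specimen 2 was the highest of all 6 specimens. Camp, the cathelicidin gene, overlapped, with 8758, 8008 and 5306 CPM in the combination, against 12095, 5528 and 11691 CPM in vehicle (-0.41 ± 0.32).

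Mature neutrophil markers had 9 of 22 tested members wholly lower, 0 higher and a median of -0.60. The receptors that guide these cells formed the list with the largest share of wholly lower members after the interferon-stimulated genes, 14 of 23 (median -0.57). Fpr1, the receptor for bacterial formyl peptides, had 124, 127 and 114 CPM in the combination, against 238, 175 and 223 CPM in vehicle (-0.80 ± 0.18). C5ar1, the receptor for the complement fragment C5a, had 94.5, 107 and 115 CPM in the combination, against 169, 194 and 151 CPM in vehicle (-0.69 ± 0.17). The integrin chains Itgam and Itgb2, chosen after the values were seen, were at -0.57 ± 0.18 and -0.63 ± 0.17 without overlap, whereas Itgb1, which is expressed across lineages, was at 0.02 ± 0.17. S100a9, an abundant transcript of mature neutrophils that was also chosen after the values were seen, had wide vehicle values, with 27504, 24897 and 18761 CPM in the combination, against 42812, 21948 and 41001 CPM in vehicle (-0.57 ± 0.29). Of 9 tested S100 genes 1 was wholly lower, S100a11 with 639, 524 and 505 CPM in the combination, against 998, 762 and 849 CPM in vehicle (-0.65 ± 0.19). S100a6 had 783, 814 and 604 CPM in the combination, against 1444, 725 and 1198 CPM in vehicle (-0.61 ± 0.26).

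The phagocyte NADPH oxidase makes the superoxide that kills microbes, from a membrane core (Cybb and Cyba) and cytosolic subunits. It had 5 of 9 members wholly lower and 0 higher (median -0.53). Cybb, the catalytic core, had 1476, 1366 and 1373 CPM in the combination, against 2276, 2268 and 1942 CPM in vehicle (-0.62 ± 0.18). Ncf4, a cytosolic subunit that binds a phosphoinositide, had 262, 262 and 213 CPM in the combination, against 433, 316 and 349 CPM in vehicle (-0.58 ± 0.19). Fc and paired immunoglobulin-like receptors had 3 of 21 wholly lower (median -0.54), against 9.76% of all tested genes. Among the 3 were Pira2 and Pira6, near-identical copies whose counts may be split. The third, Pilra, had 142, 142 and 134 CPM in the combination, against 252, 178 and 240.4 CPM in vehicle (-0.68 ± 0.18), and the IgG receptor Fcgr4 had 77.2, 60.3 and 102 CPM in the combination, against 236, 73.8 and 208 CPM in vehicle (-1.11 ± 0.38), where vehicle specimen 2 fell within the combination.

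Monocyte markers had 7 of 23 members wholly lower and 0 higher, with a median of -0.48. Ace, known from nonclassical monocytes in this tissue, had 10.3, 10.9 and 13.2 CPM in the combination, against 24.4, 17.6 and 30.0 CPM in vehicle (-1.06 ± 0.23). Cd14, a co-receptor for lipopolysaccharide, had 14.2, 11.8 and 14.6 CPM in the combination, against 33.3, 15.1 and 37.9 CPM in vehicle (-1.09 ± 0.31). Of 21 regulators of granulocyte and monocyte precursors 4 were wholly lower and 1 higher, against 9.76% and 9.16% of all tested genes. Spi1 (PU.1), needed for the whole myeloid branch, had 333, 299.7 and 279 CPM in the combination, against 528, 423 and 433 CPM in vehicle (-0.60 ± 0.18). Stat3 had 111, 137 and 137 CPM in the combination, against 176, 237 and 152 CPM in vehicle (-0.55 ± 0.21). Cebpa and Irf8, which set the choice between granulocytes and monocytes and were chosen after the values were seen, were at -0.31 ± 0.22 and -0.01 ± 0.19 with overlap.

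Macrophage markers had 1 of 19 tested members wholly lower (median -0.43), the receptor kinase Axl, chosen after the values were seen (-0.43 ± 0.21). Cd5l had 8.59, 1.60 and 3.03 CPM in the combination, against 18.8, 5.34 and 8.29 CPM in vehicle (-1.29 ± 0.60). Fcna had 50.9, 17.4 and 33.3 CPM in the combination, against 20.3, 20.6 and 22.4 CPM in vehicle (0.68 ± 0.32), both with overlap. Dendritic cell markers had 2 wholly higher and 2 wholly lower of 22 (median 0.13, and 0.02 without vehicle specimen 1), shares close to the background. Zbtb46, a factor of classical dendritic cells that erythroid cells also express, had 10.9, 13.2 and 10.4 CPM in the combination, against 3.56, 6.36 and 5.49 CPM in vehicle (1.16 ± 0.25). Naaa had 64.2, 48.8 and 53.5 CPM in the combination, against 83.1, 70.0 and 84.5 CPM in vehicle (-0.51 ± 0.17). For eosinophil, basophil and mast cell markers 1 of 19 was wholly lower, Hdc, the histamine-forming enzyme, with 254, 199 and 254 CPM in the combination, against 389, 398 and 329 CPM in vehicle (-0.66 ± 0.18). Siglecf had 25.5, 18.6 and 23.1 CPM in the combination, against 35.4, 24.0 and 27.8 CPM in vehicle (-0.38 ± 0.21). Their median was -0.07, and -0.36 without combination specimen 10.

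BTK and PI3K delta are best known from B cells, where both act below the antigen receptor. Mature B cell markers had 4 of 19 tested members wholly higher and 1 wholly lower, against 9.16% and 9.76% of all tested genes. Their median was 0.25. Ms4a1 (CD20) averaged 29.4 ± 13.7 CPM in the combination and 8.06 ± 0.723 CPM in vehicle (SD, n = 3 each), a log2 difference of 1.87 ± 0.32. Cr2 (CD21) had 1.86, 2.01 and 6.99 CPM in the combination, against 0.837, 1.02 and 0.699 CPM in vehicle (2.09 ± 0.54). Combination specimen 12 carried the highest value of both genes, while the 3 vehicle values lay close together. Cd74 and H2-Aa, which B cells share with other antigen-presenting cells and which were chosen after the values were seen, were at -0.14 ± 0.22 and -0.29 ± 0.28.

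B-lineage precursors had 1 of 21 markers wholly higher and 0 lower (median 0.15), Cecr2 with 17.2, 28.0 and 20.7 CPM in the combination, against 7.17, 14.8 and 17.1 CPM in vehicle (0.75 ± 0.31). Bst1 had 53.0, 39.5 and 58.9 CPM in the combination, against 91.7, 58.0 and 115 CPM in vehicle (-0.80 ± 0.26). The median of this list was -0.08 without vehicle specimen 1 and 0.74 without vehicle specimen 3, so it rests on single specimens. Plasma cell markers had 0 of 14 without overlap (median 0.16), with 985, 414 and 404 CPM in the combination, against 145, 511 and 339.8 CPM in vehicle for Jchain, the joining chain of secreted antibody (0.86 ± 0.46), and 28.3, 17.3 and 22.7 CPM in the combination, against 9.99, 14.6 and 22.3 CPM in vehicle for Mzb1 (0.54 ± 0.30). T cell markers had 0 of 19 (median -0.11). Cd3e had 3.50, 2.07 and 5.18 CPM in the combination, against 6.22, 3.94 and 6.44 CPM in vehicle (-0.61 ± 0.35). Cd3d had 7.99, 55.9 and 80.3 CPM in the combination, against 86.9, 46.9 and 167 CPM in vehicle (-1.06 ± 0.72). For NK cells the count was 1 higher and 2 lower of 15, against 9.16% and 9.76% of all tested genes. Gzmb had 1.53, 1.06 and 1.68 CPM in the combination, against 2.93, 2.13 and 2.60 CPM in vehicle (-0.83 ± 0.31). Ccl5 had 9.69, 6.62 and 11.9 CPM in the combination, against 13.7, 12.99 and 14.9 CPM in vehicle (-0.55 ± 0.24). Cd3d varied widely within both groups, and Gzmb and Cd3e were at a few CPM in all 6 specimens, which limits their precision.

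Megakaryocyte and platelet markers had 1 wholly higher and 2 wholly lower of 21, against 9.16% and 9.76% of all tested genes. Gp9, a subunit of the von Willebrand factor receptor, had 9.20, 9.75 and 7.45 CPM in the combination, against 4.65, 4.04 and 4.39 CPM in vehicle (1.01 ± 0.22), while Plek, also abundant in neutrophils, had 192, 195 and 237 CPM in the combination, against 311, 324 and 274 CPM in vehicle (-0.54 ± 0.17), and Pf4, chosen after the values were seen, was at -0.01 ± 0.32. Stem and progenitor cell markers had 0 of 19 without overlap, a median of -0.09 and summed levels of 504 to 529 CPM in the combination and 513 to 628 CPM in vehicle. Erg had 30.3, 42.8 and 30.9 CPM in the combination, against 45.5, 57.2 and 38.4 CPM in vehicle (-0.44 ± 0.21). Cd34 had 38.0, 29.0 and 32.7 CPM in the combination, against 40.9, 51.6 and 36.7 CPM in vehicle (-0.38 ± 0.19).

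Marrow stroma and endothelium markers had 6 of 17 tested members wholly higher and 0 lower, with a median of 0.56. They held 2 of the 3 named genes with the smallest p on the higher side. Sparc, a matrix protein of bone (chr11:55394159-55420080, GRCm38.p6), averaged 14.9 ± 8.30 CPM in the combination and 2.11 ± 0.213 CPM in vehicle (SD, n = 3 each), a log2 difference of 2.81 ± 0.38 (edgeR quasi-likelihood, Benjamini-Hochberg adjusted p = 0.136). Col1a2, a chain of type I collagen, had 21.6, 76.0 and 27.5 CPM in the combination, against 2.20, 6.22 and 2.096 CPM in vehicle (3.56 ± 0.57), and its partner Col1a1, chosen after the values were seen, had 26.9, 105 and 30.1 CPM in the combination, against 2.88, 9.84 and 3.84 CPM in vehicle (3.28 ± 0.61). All 3 genes were highest in combination specimen 11, and their 3 combination values exceeded all vehicle values. Several other stromal genes did not share this size or side, and of the 17 tested 12 were positive and 5 negative. Lpl and Igfbp4 were at -0.57 ± 0.27 and -0.50 ± 0.22, both with overlap. Cxcl12 had 5.36, 17.1 and 9.26 CPM in the combination, against 11.5, 4.55 and 6.34 CPM in vehicle (0.50 ± 0.44), and the receptor genes Pdgfrb and Lepr were at -0.10 ± 0.36 and -0.15 ± 0.56. The remaining wholly higher members were at low levels. Emcn had 0.657, 0.473 and 0.716 CPM in the combination, against 0.052, 0.093 and 0.299 CPM in vehicle (2.02 ± 0.61). Adipoq and Kdr were at 0.98 ± 0.42 and 0.74 ± 0.37.

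**Figure D5:**
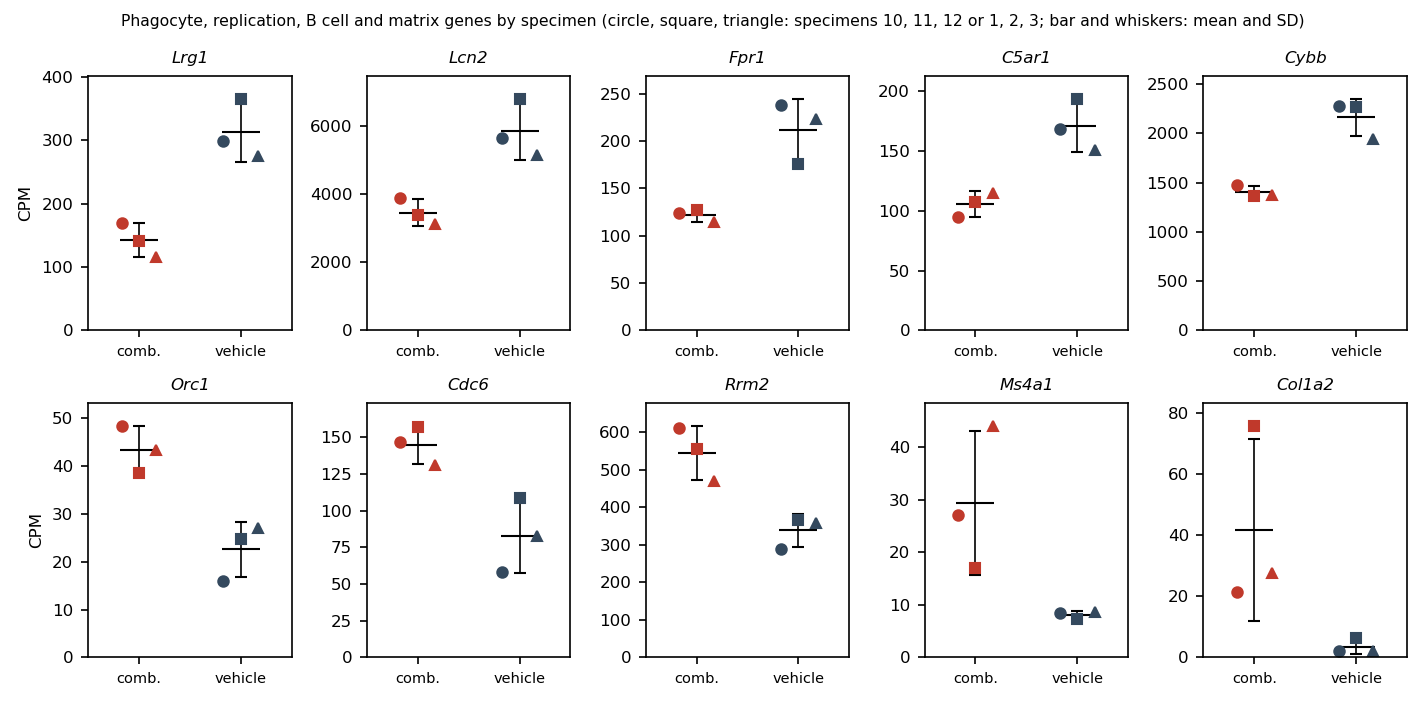
CPM of 10 phagocyte, replication, B cell and matrix genes in each specimen, combination at left (red) and vehicle at right (dark), with bars for the mean and whiskers for the SD of 3 specimens. The 5 phagocyte genes lie lower and the other 5 higher in the combination, and Col1a2 has its highest point in combination specimen 11 (square).

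The genes of the drug targets themselves were measured in each specimen. Btk had 109, 99.8 and 102 CPM in the combination, against 127, 100.5 and 119.6 CPM in vehicle (-0.16 ± 0.17), with overlap. Pik3cd, which encodes the delta isoform of PI3K, had 169, 193 and 203 CPM in the combination, against 252, 286 and 230.4 CPM in vehicle (-0.44 ± 0.17), wholly below vehicle but with an edgeR quasi-likelihood Benjamini-Hochberg adjusted p of 0.308. Ptpn11, the gene of SHP2, had 104, 121 and 128 CPM in the combination, against 108, 164 and 108 CPM in vehicle (-0.11 ± 0.21), highest in vehicle specimen 2, and its difference was positive (0.14) without that specimen and by limma voom (0.12). The counts do not separate mutant from normal Ptpn11 transcripts.

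Around these targets, class I PI3K, AKT and mTOR components had 4 of 30 members wholly lower, 0 higher and a median of -0.15, or 0.03 by limma voom. Pik3r5, a regulatory subunit of the gamma isoform, had 52.2, 66.2 and 69.1 CPM in the combination, against 94.1, 89.7 and 84.5 CPM in vehicle (-0.52 ± 0.17). The adaptor Pik3ap1 had 45.8, 55.1 and 61.5 CPM in the combination, against 78.6, 103 and 60.6 CPM in vehicle (-0.58 ± 0.22). FOXO factors and their targets, which AKT holds back, had 1 wholly higher and 3 wholly lower of 24 and a median of -0.09. Over all tested genes 9.76% lay wholly below vehicle, so the wholly lower shares of both lists were near the background. Bcl6 had 42.9, 57.2 and 51.8 CPM in the combination, against 83.2, 82.8 and 71.1 CPM in vehicle (-0.64 ± 0.17). Foxo1 and Foxo3, chosen after the values were seen, were at 0.14 ± 0.25 and 0.10 ± 0.25.

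The Tec and Src kinases had 7 of 14 tested members wholly lower and 0 higher, with a median of -0.24, or -0.14 without vehicle specimen 1. Fgr, known from phagocytes, had 243, 266 and 260.5 CPM in the combination, against 446, 387 and 377 CPM in vehicle (-0.65 ± 0.17). Lyn, which acts in both B cells and myeloid cells, had 204, 185 and 212 CPM in the combination, against 299, 294 and 279.7 CPM in vehicle (-0.54 ± 0.16). The lymphocyte kinases Blk and Lck, chosen after the values were seen, overlapped, at 0.41 ± 0.26 and -0.02 ± 0.20. Fyn and Tec of the same list lay wholly below vehicle, at -0.17 ± 0.16 and -0.29 ± 0.17. In the B-cell receptor and BTK chain 6 of 26 were wholly lower and 0 higher (median -0.26). Ptpn6 (SHP1), an inhibitory phosphatase, had 453, 395 and 387 CPM in the combination, against 671, 499 and 572 CPM in vehicle (-0.50 ± 0.18), and the receptor's own chains Cd79a and Cd79b were at 0.46 ± 0.25 and 0.29 ± 0.22.

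SHP2 and RAS pathway genes had 7 of 27 members wholly lower and 1 higher, with a median of -0.14. Mapk3 (ERK1) had 206, 206 and 181 CPM in the combination, against 304, 306 and 250.5 CPM in vehicle (-0.54 ± 0.17). Rasgrp4, an exchange factor of mast cells and granulocytes, had 96.0, 174 and 126 CPM in the combination, against 225, 176 and 195 CPM in vehicle (-0.59 ± 0.23). Nras, Nf1 and Cbl, which with Ptpn11 are among the genes mutated in juvenile myelomonocytic leukemia and were chosen after the values were seen, were at -0.12 ± 0.16, -0.15 ± 0.27 and -0.42 ± 0.37, all with overlap. ERK output and feedback genes had 2 wholly higher and 0 wholly lower of 24 (median -0.15), against 9.16% and 9.76% of all tested genes. Fos had 569.6, 1007 and 644 CPM in the combination, against 567, 401 and 428 CPM in vehicle (0.67 ± 0.25). Fosl1 had 0.657, 0.296 and 0.168 CPM in the combination, against 2.77, 1.35 and 0.399 CPM in vehicle (-2.02 ± 0.72). Dusp6 and Spry2, feedback inhibitors of the pathway, were at -0.41 ± 0.19 and -0.25 ± 0.23. Combination specimen 11 was the highest in Fosb, an immediate-early gene, with 45.0, 231 and 68.0 CPM in the combination, against 54.7, 32.8 and 20.4 CPM in vehicle (1.67 ± 0.56). Immediate-early and heat-shock genes had 2 of 20 wholly higher, near the background of 9.16% of all tested genes.

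Receptors for blood cell cytokines had 10 of 25 wholly lower and 2 wholly higher (median -0.38). Csf2rb, the shared beta chain for GM-CSF, IL-3 and IL-5, had 175, 190.3 and 206 CPM in the combination, against 286, 385 and 252 CPM in vehicle (-0.69 ± 0.20). Il4ra had 56.3, 49.6 and 66.4 CPM in the combination, against 89.2, 91.8 and 84.5 CPM in vehicle (-0.62 ± 0.17). On the other side stood the erythropoietin receptor Epor, chosen after the values were seen, with 74.1, 69.2 and 53.2 CPM in the combination, against 12.6, 36.0 and 39.1 CPM in vehicle (1.16 ± 0.36). Cytokine feedback genes had 5 of 17 wholly lower and 0 higher (median -0.13, and -0.06 without combination specimen 10), including Socs3, an inhibitor of JAK and STAT3 signals, with 11.9, 13.9 and 17.8 CPM in the combination, against 23.1, 21.9 and 29.5 CPM in vehicle (-0.77 ± 0.21). Cish and Pim1, targets of STAT5 chosen after the values were seen, were at 0.15 ± 0.40 with overlap and -0.28 ± 0.15 without.

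Inflammatory cytokines, chemokines and inflammasome genes had 6 of 30 tested members wholly lower and 0 higher (median -0.36). Tnfsf13b (BAFF), the survival factor of B cells, had 22.9, 24.0 and 21.4 CPM in the combination, against 37.4, 35.7 and 31.9 CPM in vehicle (-0.62 ± 0.16). Nlrp12 had 37.2, 35.3 and 46.6 CPM in the combination, against 57.8, 52.7 and 65.1 CPM in vehicle (-0.56 ± 0.18). The classical cytokines Tnf and Il1b, chosen after the values were seen, were at -0.24 ± 0.52 and -0.40 ± 0.37 with overlap. NF-kB factors and feedback inhibitors had 6 of 23 wholly lower and 0 higher (median -0.21), against 9.76% and 9.16% of all tested genes. Bcl3 had 16.7, 11.7 and 18.3 CPM in the combination, against 23.6, 31.1 and 23.8 CPM in vehicle (-0.75 ± 0.22). Nfkbie, an inhibitor of the pathway that NF-kB itself induces, had 18.5, 16.9 and 18.9 CPM in the combination, against 28.0, 22.5 and 24.0 CPM in vehicle (-0.45 ± 0.17). MHC class II presentation genes had 1 of 15 wholly lower (median -0.26), Ifi30 with 135, 96.9 and 108 CPM in the combination, against 147, 154 and 153 CPM in vehicle (-0.42 ± 0.18), while Ctss had 288, 183 and 255 CPM in the combination, against 442, 252 and 423 CPM in vehicle (-0.62 ± 0.26).

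Glycolysis genes had 13 of 27 wholly lower and 4 wholly higher, with a median of -0.44. Slc2a1 (GLUT1), a glucose importer, had 18.8, 20.7 and 21.8 CPM in the combination, against 32.7, 35.1 and 34.1 CPM in vehicle (-0.73 ± 0.16). Slc16a3 (MCT4), a lactate exporter, had 142, 130.0 and 147 CPM in the combination, against 229.5, 204 and 203 CPM in vehicle (-0.60 ± 0.16). The 4 on the other side, chosen after the values were seen, were Pfkm at 1.00 ± 0.36, Pklr, the red cell pyruvate kinase, at 0.82 ± 0.38, the lactate carrier Slc16a1 at 0.82 ± 0.25, and Pdk1 at 0.24 ± 0.17. The related isozymes Pfkp and Pkm, which many other cells use, were at -0.42 ± 0.16 and -0.63 ± 0.20, also without overlap.

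Antioxidant enzymes had 9 of 28 wholly higher and 2 wholly lower (median 0.16). Mgst3, a microsomal glutathione transferase, had 161, 154 and 94.3 CPM in the combination, against 29.2, 47.5 and 55.9 CPM in vehicle (1.62 ± 0.28). Prdx2, the abundant peroxiredoxin of red cells, had 1009, 879 and 699 CPM in the combination, against 252, 354 and 512 CPM in vehicle (1.21 ± 0.27). The 2 lower ones, chosen after the values were seen, were Glrx at -0.71 ± 0.16 and Msrb1 at -0.60 ± 0.20. Ribosomal protein genes had 2 of 32 wholly higher, against 9.16% of all tested genes, and a median of 0.22. Rps2 had 1563, 1228 and 1323 CPM in the combination, against 955, 1145 and 1123 CPM in vehicle (0.35 ± 0.18). Rplp0 had 3219, 2314 and 2284 CPM in the combination, against 2124, 1887 and 2179 CPM in vehicle (0.34 ± 0.20). Nuclear genes of oxidative phosphorylation had 0 of 36 without overlap and a median of 0.16. Ndufv1 had 134, 111 and 113 CPM in the combination, against 86.5, 112 and 89.4 CPM in vehicle (0.32 ± 0.18). Atp5g1 had 94.7, 75.6 and 91.2 CPM in the combination, against 74.2, 61.1 and 82.8 CPM in vehicle (0.26 ± 0.18).

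In the unfolded protein response 1 of 28 was wholly higher and 1 wholly lower (median -0.21), against 9.16% and 9.76% of all tested genes. Ppp1r15a (GADD34), which restarts translation after stress, had 92.7, 129 and 79.2 CPM in the combination, against 46.2, 60.6 and 52.6 CPM in vehicle (0.92 ± 0.21). Dnajb9 had 34.3, 30.9 and 31.1 CPM in the combination, against 61.6, 29.3 and 49.1 CPM in vehicle (-0.54 ± 0.25). Sterol and fatty acid synthesis had 6 of 27 wholly lower and 1 higher (median -0.22, and 0.01 without vehicle specimen 2). Scd1, a fatty acid desaturase, had 19.9, 29.3 and 38.0 CPM in the combination, against 6.96, 17.7 and 6.34 CPM in vehicle (1.49 ± 0.39), and Msmo1 of the sterol branch had 49.3, 46.4 and 40.8 CPM in the combination, against 68.3, 49.0 and 67.0 CPM in vehicle (-0.43 ± 0.18). BCL2 family and cell death genes had 1 of 21 wholly lower, Bak1 with 168, 146 and 156 CPM in the combination, against 204, 220.2 and 176 CPM in vehicle (-0.35 ± 0.17), and a median of -0.18. Bcl2a1d, 1 of a set of near-identical copies whose counts may be split, had 2.13, 1.66 and 2.23 CPM in the combination, against 8.68, 0.742 and 5.59 CPM in vehicle (-1.31 ± 0.64). Epigenetic regulators mutated in myeloid leukemia had 1 of 24 wholly higher, Ezh2 with 154, 142 and 136 CPM in the combination, against 93.6, 116 and 126 CPM in vehicle (0.37 ± 0.17), while Idh1 had 119.9, 92.9 and 104 CPM in the combination, against 164, 114 and 136 CPM in vehicle (-0.38 ± 0.19), and their median was 0.03.

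The same genes were read in the specimens given 1 inhibitor, with CPM scaled over all 12 specimens. These groups share their vehicle specimens with the comparison above, so the values are set side by side and were not tested. The single-inhibitor groups also differed from the groups compared above in how levels depend on gene length. The specimens compared above differed among themselves in this dependence too, within both groups. BTK inhibitor specimen 5 stood apart in its share of the ribosomal RNA precursor. The part of these differences in the values below was not tested. Ifit3b had 2.99, 2.82 and 2.18 CPM with both inhibitors, 3.98, 4.44 and 9.38 CPM with the BTK inhibitor alone, 3.73, 5.01 and 4.62 CPM with the PI3K delta inhibitor alone and 12.2, 7.72 and 12.1 CPM in vehicle. Oasl2 had 46.7, 45.5 and 51.0 CPM with both inhibitors, 23.1, 37.6 and 73.4 CPM with the BTK inhibitor alone, 41.3, 26.4 and 45.2 CPM with the PI3K delta inhibitor alone and 128, 94.7 and 141 CPM in vehicle. Tfrc had 592, 546 and 575 CPM with both inhibitors, 305, 1017 and 406 CPM with the BTK inhibitor alone, 489, 467 and 711 CPM with the PI3K delta inhibitor alone and 188, 307 and 308 CPM in vehicle. In Ifit3b 5 of the 6 single-inhibitor specimens, and in Oasl2 all 6, lay below the lowest vehicle specimen. Tfrc ranged widely with the BTK inhibitor alone, with its highest value in specimen 5. The exception in Ifit3b was BTK inhibitor specimen 6, the only specimen of the series whose title carries a different date, and the part of that date in its values was not tested. Slc25a38 had 72.1, 71.4 and 62.9 CPM with both inhibitors, 53.2, 56.1 and 45.3 CPM with the BTK inhibitor alone, 71.7, 68.9 and 113 CPM with the PI3K delta inhibitor alone and 28.8, 31.7 and 39.6 CPM in vehicle. Lrg1 had 147, 122 and 102 CPM with both inhibitors, 326, 439 and 152 CPM with the BTK inhibitor alone, 186, 329 and 150.1 CPM with the PI3K delta inhibitor alone and 256, 322 and 238 CPM in vehicle, so that its single-inhibitor values spanned the vehicle values. Sparc had 9.12, 21.2 and 8.53 CPM with both inhibitors, 4.41, 6.66 and 4.69 CPM with the BTK inhibitor alone, 7.38, 14.8 and 7.98 CPM with the PI3K delta inhibitor alone and 2.01, 1.80 and 1.69 CPM in vehicle. All 6 single-inhibitor specimens of Sparc lay above the 3 vehicle specimens.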

How the data were processed

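The deposited table holds read counts per gene, made by the authors with STAR and featureCounts on mm10, per the submitters' processing notes. Their versions and settings: not given in the sources used here. Libraries came from SMART-Seq v4 and Nextera XT kits, per the labels' protocols, and carry no strand and no molecular identifiers. The unit is counts as deposited by the authors, in 1 column per specimen.

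The 6 specimens were fitted in edgeR 4.0.16 (R 4.3.3) by robust quasi-likelihood with TMM scaling, after filterByExpr (minimum 10 counts, total 15), and Benjamini-Hochberg adjustment ran over all tested genes at 0.05. CPM are TMM-scaled and relative to the counts of tested genes, so levels are shares and not corrected for gene length. "Wholly higher" or "wholly lower" means that no value of the groups overlaps; "overlap" means that some do. Alternatives were DESeq2 1.42.0, limma voom 3.58.1, other scalings and filters, a gene length offset, a Y-linked covariate, all 12 specimens and each specimen left out. An exact permutation test of 3 against 3 cannot go below 0.1. The edgeR script was tested on simulated counts.

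Members and the 54 gene lists were chosen with earlier results of these data known. Named genes are the 10 with the smallest p per direction among well-expressed genes (mean log2 CPM of at least 2) without overlap and without predicted genes, the 2 with the smallest p in each list, Btk, Pik3cd and Ptpn11. Some genes are not reported here. All other genes named, also where the text does not repeat it, were chosen after their values were seen.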

Additional observations from a re-analysis of the deposited data

How the results depend on the processing

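The count of genes called by edgeR was 0 higher and 0 lower with all 12 specimens, without BTK inhibitor specimen 5, with RLE or upper-quartile scaling, with a filter of 50 counts in 3 specimens and without hemoglobin genes and Rn45s. It was 14 higher and 10 lower without a filter, 1 higher and 3 lower with a gene length offset, and 2 higher and 1 lower with the Y-linked covariate. DESeq2 gave 176 higher and 102 lower, limma voom 694 higher and 626 lower. Leaving out 1 specimen gave 0 to 259 higher and 0 to 192 lower, and all of these calls came without vehicle specimen 2. No paired analysis was possible because the groups share no specimen number. The log2 difference of Ptpn11 turned to 0.12 by limma voom and ran from -0.21 to 0.14 when 1 specimen was left out. The median of the sterol list ran from -0.21 to 0.0105, positive without vehicle specimen 2; the cause was not tested. Over the other settings 901 list medians moved by less than the spread between specimens and 15 by more, in the same direction or through 0. Specimens of 1 group differed beyond counting error, with a chi-square per degree of freedom of 20.5 to 45.34 in the combination and 30.3 to 132.3 in vehicle. This value is summed over genes, so it does not give the part of counting error in genes with few counts.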
